A study of Mus musculus with 8 samples.

Results

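The genes examined were the 7 that encode platelet-derived growth factor (PDGF) ligands, their receptors and the receptor-like protein of the same family, namely Pdgfra, Pdgfrb, Pdgfrl, Pdgfa, Pdgfb, Pdgfc and Pdgfd. They were taken by symbol, and all 7 were found among the 40840 genes of the deposited tables. The libraries came from primary hepatic stellate cells of male C57BL/6J mice aged 15 to 18 weeks, sorted on retinol autofluorescence and left to become myofibroblasts on plastic for 7 days (pMF-HSCs) in medium with 5% fetal bovine serum. Cells were then given vehicle (DMSO, control, n = 4) or OSMI-1 at 50 µM (OGTi, n = 4) for 24 h. OSMI-1 is a small-molecule inhibitor of OGT, which attaches the sugar O-GlcNAc to intracellular proteins. No genotype differed between the groups, and the model is one of culture activation, with no injured liver in it. A control and an OGTi library with the same number were treated as a pair.

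PDGF ligands are secreted dimers that bring receptor chains together at the cell surface, so that the tyrosine kinases of the chains phosphorylate each other. The alpha receptor binds the A, B and C chains, whereas the beta receptor binds B and D. In liver, PDGF is the classical mitogen of activated stellate cells, the beta receptor is a marker of these cells, and platelets, endothelial cells and macrophages are known sources of the B chain.

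Each library held between 30068876 and 37372420 expected counts. The 10 most abundant genes took 6.73% to 7.76% of these in control and 10.9% to 15.8% in OGTi, and OGTi replicate 4 had 23746 genes with a count, against 19035 to 20293 in the other libraries. Levels are given in TPM, which is scaled per length, allows genes to be compared and is a share of each library's total, and changes as log2 fold changes of OGTi over control from the paired edgeR model on counts. All stellate and myofibroblast markers were detected in every library, with summed levels of 3560 to 8190 TPM in control and 3070 to 7730 TPM in OGTi for the 10 stellate markers, most of it Dcn, and of 4510 to 7940 TPM and 3930 to 9070 TPM for the 7 myofibroblast markers. Of the stellate list 3 fell, among them Lrat, which esterifies retinol for storage, and Hgf, with log2 fold changes of -1.78 and -2.13, and none of the 10 rose at this threshold. None of the myofibroblast markers passed, though 5 of 7 had an unadjusted p under 0.05 and DESeq2 called 2. These 5 went both ways. Col1a1, Col1a2 and Col3a1 were lower in all 4 pairs (log2 fold changes -0.85, -0.54 and -0.72), and Tagln and Timp1 were higher in all 4 (0.53 and 0.52). Of the 9 endothelial markers, 7 stayed under 1 TPM in every library, among them Cdh5 and Pecam1, and 2 of the 8 tested fell, Tek (0.56 to 1.59 TPM in control and 0.03 to 0.23 TPM in OGTi, log2 fold change -3.36) and Lyve1 (0.21 to 0.68 and 0 to 0.17 TPM, -3.17). The log2 fold changes of all 5 smooth muscle and pericyte markers were below 0, and Mcam fell by 1.42. Of 3 cholangiocyte markers Krt19 fell by 0.66, while Krt7 and Epcam did not pass (log2 fold changes -0.24 and 2.18), and Cyp2e1, a hepatocyte marker, rose 15.7-fold but stayed at or below 1.2 TPM. Of the macrophage list 5 of 10 stayed under 1 TPM in every library, among them Ptprc, and of the hepatocyte list 6 of 7, with Hnf4a and Tat at 0 in all libraries. The summed level of the 10 macrophage markers was 49.8 to 181 TPM in control and 90.2 to 232 TPM in OGTi, most of it Lyz2 and Cd68, and Cd68 rose 2.83-fold, the 1 marker called of 9 tested, whose median log2 fold change was -0.03. Of the 4 platelet markers none passed the test (1 had an unadjusted p under 0.05, and DESeq2 called 0), with summed levels of 66.5 to 112 TPM in control and 32.9 to 89.4 TPM in OGTi, most of it Pf4. In bulk RNA, fewer cells of a kind and less RNA per cell cannot be told apart. The part of these markers in the results was not tested.

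The RNA of both receptors fell, whereas no change was detected in Pdgfa, the most abundant ligand RNA. Of the 7 PDGF genes 4 changed and all 4 fell, at an adjusted p of 0.05 or less (paired edgeR test). Of all genes tested 18.4% changed, 10.2% being lower and 8.13% higher. Higher genes were thus 44.3% of those changed, a share that lay between 25.7% (limma-trend on TPM) and 54.2% (upper-quartile scaling) under other scalings. The 4 were Pdgfra, Pdgfrb, Pdgfrl and Pdgfd. Pdgfa, Pdgfb and Pdgfc did not pass. The median log2 fold change was -1.68 over the 7 genes and 0.01 over all 19963 genes tested. All 7 passed the filter on low counts, Pdgfb with the fewest counts.

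**Figure D1:**
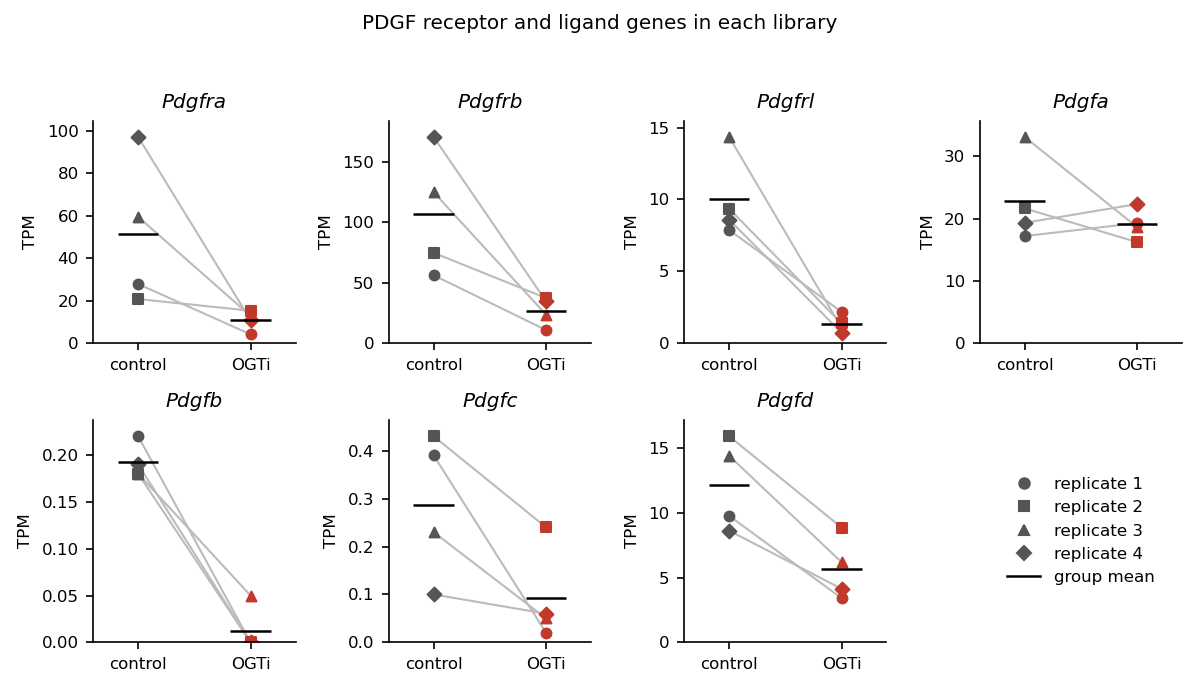
Level of each PDGF gene in TPM (vertical axes, each from 0) in control (grey) and OGTi (red) libraries. Symbols mark replicates, lines join a pair and bars are group means (n = 4). Pdgfra, Pdgfrb and Pdgfrl were lower in OGTi in every pair, while the pairs of Pdgfa split between both directions.

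Pdgfra, on chromosome 5 (GRCm39, 75311994 to 75358876, plus strand), encodes the alpha receptor tyrosine kinase. Its level in control replicates 1 to 4 was 27.8, 20.8, 59.5 and 97.0 TPM, and in OGTi replicates 1 to 4 it was 4.14, 15.3, 12.8 and 10.9 TPM. Every OGTi library was below every control library, with the closest approach in replicate 2, and control replicate 4 was the highest. The share of all genes whose TPM separates in this way was not counted, here or for the genes below. Separation in TPM also occurs without a detected change, as for the adaptor gene Nck1 (35.5 to 40.2 TPM in control, 28.8 to 33.1 TPM in OGTi, log2 fold change 0.05). The log2 fold change was -1.95 ± 0.38 (SE, n = 4 pairs), a level 3.87-fold lower, with an edgeR adjusted p of 0.00655. The pairs differed in size, with log2 ratios of scaled counts of -2.35, -0.38, -1.97 and -3.03 for replicates 1 to 4. Without replicate 2 the log2 fold change was -2.42 and without replicate 4 it was -1.57, with adjusted p of 0.0019 and 0.0385.

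Pdgfrb, on chromosome 18 (GRCm39, 61178212 to 61218133, plus strand), encodes the beta receptor tyrosine kinase, which binds the B and D chains. It was the most abundant of the PDGF genes in control, at 56.3, 74.8, 125 and 170.8 TPM in replicates 1 to 4. In OGTi it was at 10.9, 37.4, 23.6 and 34.7 TPM, again with no overlap between groups. The log2 fold change was -1.68 ± 0.24 (SE, n = 4 pairs), 3.20-fold lower, with an edgeR adjusted p of 0.00154. The pairs were closer to each other than those of Pdgfra, with log2 ratios of -1.76, -0.89, -2.04 and -2.02.

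Pdgfrl, on chromosome 8 (GRCm39, 41379147 to 41444594, plus strand), encodes the PDGF receptor-like protein, which resembles the extracellular part of the receptors and has no kinase. Its level was 7.87, 9.35, 14.3 and 8.59 TPM in control replicates 1 to 4 and 2.18, 1.37, 1.07 and 0.73 TPM in OGTi. It had the lowest log2 fold change of the 4 genes that fell, -2.63 ± 0.38 (SE, n = 4 pairs), with an edgeR adjusted p of 0.00166. The counts were modest, from 21 to 84 in OGTi. The smallest pair ratio was that of replicate 1, at -1.33, against -2.67, -3.37 and -3.25 in the others. Of all genes tested, 2.20% had a lower log2 fold change than Pdgfrl, 5.01% a lower one than Pdgfra and 6.84% a lower one than Pdgfrb. Pdgfrl overlaps Mtus1 on the other strand. The library kit and the counting were stranded.

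**Figure D2:**
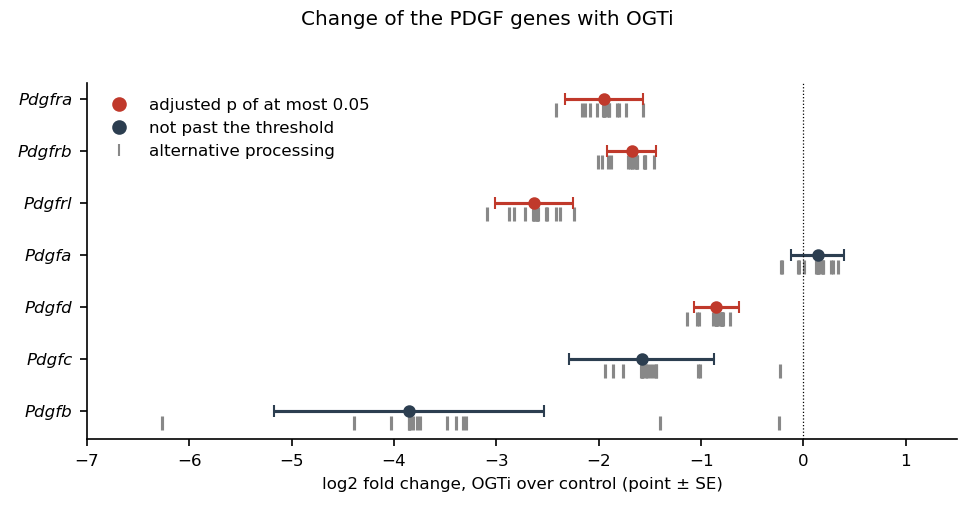
Log2 fold change of each PDGF gene, OGTi over control (horizontal axis), with its SE (bars, n = 4 pairs). Red points passed an adjusted p of 0.05, dark points did not, and grey ticks are the values under the alternative analyses. Every tick of Pdgfra, Pdgfrb, Pdgfrl and Pdgfd lies below 0, while those of Pdgfa lie on both sides.

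No shift of the balance between alpha and beta receptor RNA was detected. The ratio of Pdgfra to Pdgfrb in TPM was 0.494, 0.277, 0.475 and 0.568 in control replicates 1 to 4 and 0.381, 0.408, 0.544 and 0.314 in OGTi. The groups overlapped, and the ratio was lower in 2 pairs and higher in 2. On the log2 scale the control mean was -1.19 ± 0.454 and the OGTi mean -1.31 ± 0.327 (SD, n = 4), a difference of -0.119 with a p of 0.629 (exact permutation test over the 70 assignments of libraries, two-sided). A shift of the balance smaller than these spreads could not be seen with 4 libraries a group. Over the 8 libraries, the centred log2 CPM of Pdgfrb (CPM is a count scaled to library size) differed from that of Pdgfra by 0.38 (root mean square), which made it the 11th nearest of 14798 genes. Pdgfrl was farther from Pdgfra, at 1.09. These distances are descriptions, and the treatment is part of them.

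Pdgfra was counted over 8 transcript models, and the deposited tables give a mean transcript length weighted by the estimated abundance of each model. This length was 5426, 5307, 5506 and 5557 bases in control replicates 1 to 4 and 4959, 5150, 5043 and 4973 bases in OGTi. No OGTi value reached the lowest control value. The mean went from 5448.8 ± 108.9 to 5031.3 ± 87.4 bases (SD, n = 4), a difference of -417.5 bases with an unadjusted p of 0.0286, the smallest that the exact permutation test can give here, and of 0.143 after Benjamini-Hochberg adjustment over 5 PDGF genes. The measure was examined after the data were seen. The lengths of Pdgfrb, Pdgfa, Pdgfc and Pdgfd overlapped between groups (unadjusted exact p from 0.343 to 0.857). Of 10360 genes with several models and a count in every library, 3.39% had all OGTi libraries shorter than all control libraries and 7.50% had no overlap in either direction. Abundances per model were not used here, so which models of Pdgfra differ was not analysed.

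**Figure D3:**
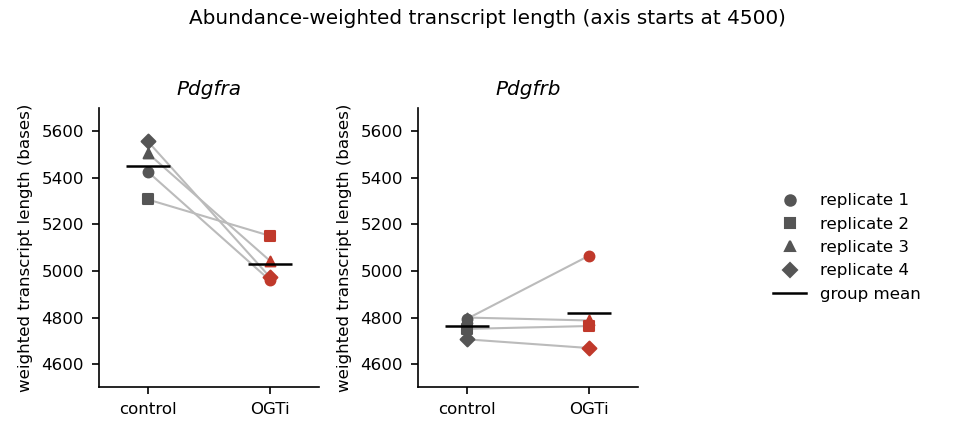
Abundance-weighted transcript length in bases (vertical axis, not starting at 0) of Pdgfra and Pdgfrb in control (grey) and OGTi (red) libraries, with symbols for replicates, lines for pairs and bars for group means (n = 4). The 4 OGTi values of Pdgfra lie below the control values, and those of Pdgfrb overlap with control.

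Among the ligands, Pdgfa (chromosome 5, GRCm39, 138961758 to 138983435, minus strand) encodes the A chain and was the most abundant in all 8 libraries. Its level was 17.2, 21.7, 33.1 and 19.3 TPM in control replicates 1 to 4 and 19.3, 16.2, 18.6 and 22.3 TPM in OGTi, and the groups overlapped. The log2 fold change was 0.14 ± 0.26 (SE, n = 4 pairs; 95% interval -0.43 to 0.71), with an edgeR adjusted p of 0.761, and 2 pairs were higher and 2 lower. The sign depended on the scaling, being negative with library totals alone and on the TPM scale.

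Pdgfd (chromosome 9, GRCm39, 6168240 to 6379265, plus strand) encodes the D chain, a ligand of the beta receptor that is secreted in latent form. It was at 9.75, 15.9, 14.4 and 8.61 TPM in control replicates 1 to 4 and at 3.41, 8.85, 6.18 and 4.13 TPM in OGTi. The group ranges overlapped, since OGTi replicate 2 lay just above control replicate 4, yet each OGTi library was below its own control. The log2 fold change was -0.85 ± 0.22 (SE, n = 4 pairs), 1.80-fold lower, with an edgeR adjusted p of 0.0227. The pairs gave log2 ratios of scaled counts of -1.03, -0.75, -0.89 and -0.72, the narrowest spread of the 4 genes that fell. The call rests on the pairing and on the number of pairs. With no replicate block the adjusted p was 0.084, and without replicates 2, 3 or 4 it was 0.057, 0.123 and 0.0661.

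Pdgfb, which encodes the B chain, a ligand of both receptors (chromosome 15, GRCm39, 79880009 to 79899181, minus strand), was close to the limit of detection. It had 13, 9, 10 and 9 counts in control replicates 1 to 4 and 0, 0, 3 and 0 counts in OGTi. Control libraries were thus all above OGTi libraries, at 0.18 to 0.22 TPM against 0 to 0.05 TPM. The 41 control and 3 OGTi counts give a ratio of control over OGTi of 11.5, with an exact 95% interval of 3.66 to 57.9 for counting error only, and the paired edgeR test gave an adjusted p of 0.0718, so that the difference did not pass. Pdgfb passed with DESeq2 (adjusted p 0.0271), with no low-count filter (0.0493) and with limma-trend on log2(TPM + 1) or log2(TPM + 0.1) (0.0139 and 0.0109). Pdgfc, which encodes the C chain, a latent ligand of the alpha receptor (chromosome 3, GRCm39, 80943668 to 81121473, plus strand), had 29, 34, 17 and 7 counts in control and 2, 16, 4 and 4 in OGTi. It was lower in all 4 pairs, but the groups overlapped. Its log2 fold change of -1.58 ± 0.71 (SE) did not pass (edgeR adjusted p 0.157) and was -1.01 without replicate 1.

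The start regions of Pdgfra and Pdgfd, which fell, and of Pdgfa, which did not change detectably, are shown so that the sequence around the start can be read beside the values above. Each window runs from 250 bases before a RefSeq transcript start to 50 after it (RefSeq windows of GRCm38.p6, placed in GRCm39 by exact match), and 4 of the 7 genes matched (Pdgfra, Pdgfa, Pdgfc and Pdgfd). The starts of the windows printed here lie 918 (Pdgfra), 246 (Pdgfd) and 2736 (Pdgfa) bases inside the GENCODE gene, since genes have several starts. Windows were searched on both strands for GGGCGG (the GC box bound by Sp1), CCAAT (bound by NF-Y), GGAATG (bound by TEAD factors) and TGANTCA (bound by AP-1), and capitals mark matches. The sequences are written 5′ to 3′ on the strand of the gene.
Pdgfra, chr5:75312662-75312961, plus strand: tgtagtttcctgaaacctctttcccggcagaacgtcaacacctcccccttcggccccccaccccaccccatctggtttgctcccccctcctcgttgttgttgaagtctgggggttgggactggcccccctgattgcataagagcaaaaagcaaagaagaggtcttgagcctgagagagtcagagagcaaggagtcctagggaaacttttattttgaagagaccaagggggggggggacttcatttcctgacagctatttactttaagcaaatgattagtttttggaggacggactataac
Pdgfd, chr9:6168236-6168535, plus strand: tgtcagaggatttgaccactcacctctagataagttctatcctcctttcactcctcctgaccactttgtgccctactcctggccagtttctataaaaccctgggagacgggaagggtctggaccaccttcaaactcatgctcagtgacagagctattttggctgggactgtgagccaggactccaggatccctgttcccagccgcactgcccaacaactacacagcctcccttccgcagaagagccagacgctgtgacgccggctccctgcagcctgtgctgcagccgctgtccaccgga
Pdgfa, chr5:138980650-138980949, minus strand: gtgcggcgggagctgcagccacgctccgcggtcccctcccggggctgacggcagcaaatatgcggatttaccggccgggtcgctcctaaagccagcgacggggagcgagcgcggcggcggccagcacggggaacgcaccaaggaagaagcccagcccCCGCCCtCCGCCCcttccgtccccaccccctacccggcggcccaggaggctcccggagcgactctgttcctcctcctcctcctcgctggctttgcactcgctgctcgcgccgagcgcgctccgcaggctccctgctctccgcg
The windows of Pdgfra and Pdgfd held none of the 4 motifs, and their GC content was 51.0% and 56.7%. This window of Pdgfa had a GC content of 73.3% and held 2 GC boxes, which begin at bases 158 and 165 of the window and read CCGCCC on this strand. The other Pdgfa window held 1 GC box, and the Pdgfc window held GGAATG letters at 2 places. Over 32851 such windows, 35.7% held GGGCGG, 37.4% CCAAT, 14.7% GGAATG and 7.81% TGANTCA. A match is a run of letters and not a measured site.

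Together, the ligand RNAs were dominated by Pdgfa and Pdgfd. Pdgfa made up 56.8% to 69.1% of the summed ligand TPM in control and 64.1% to 84.9% in OGTi, and Pdgfd 30.0% to 41.6% and 15.0% to 35.0%. The ratio of Pdgfd to Pdgfa was 0.567, 0.733, 0.434 and 0.446 in control replicates 1 to 4 and 0.177, 0.546, 0.332 and 0.185 in OGTi, lower in all 4 pairs. On the log2 scale it differed by -0.941, with a p of 0.0857 (exact permutation test without pairing, two-sided, n = 4), and a sign-flip test over 4 pairs cannot reach 0.05. This ratio was chosen after the data were seen. The ratio of Pdgfc to Pdgfa differed by -1.8 on the log2 scale (exact p 0.143, n = 4), lower in all 4 pairs, and by -0.91 without replicate 1. Pdgfc counts were low. The summed TPM of Pdgfra and Pdgfrb over that of the 4 ligands was 3.05, 2.51, 3.85 and 9.49 in control replicates 1 to 4. In OGTi it was 0.661, 2.08, 1.46 and 1.72, and the groups did not overlap. This receptor to ligand ratio was not planned and was not tested. It restates the receptor and ligand levels given above and is no separate result.

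**Figure D4:**
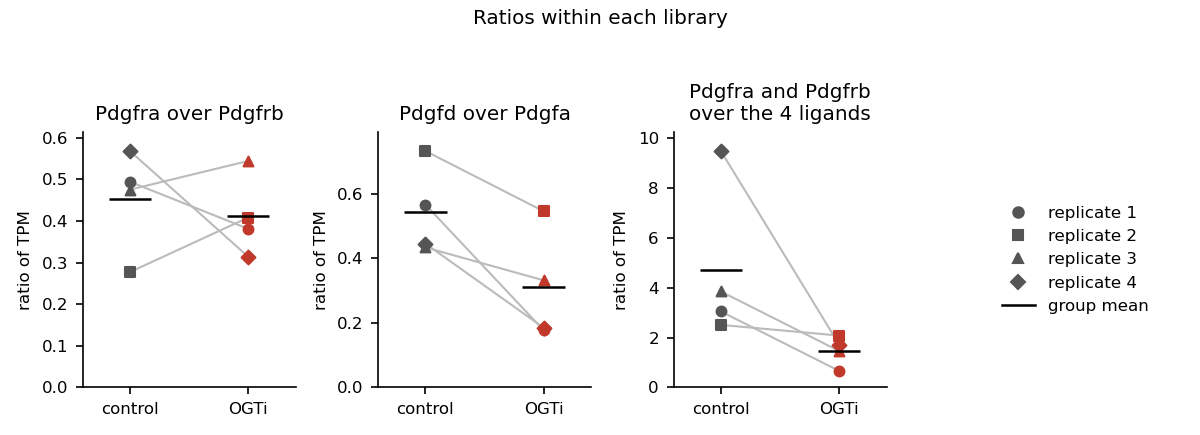
Ratios of TPM within each library (vertical axes, from 0) in control (grey) and OGTi (red), with symbols for replicates, lines for pairs and bars for group means (n = 4). The Pdgfra to Pdgfrb ratio overlaps between groups, and the Pdgfd to Pdgfa ratio is lower in OGTi in each pair. The receptor to ligand ratio, not planned and not tested, lies between 0.661 and 2.08 in OGTi, below control.

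The order of levels differed between groups. In control the mean level was 107 TPM for Pdgfrb, 51.3 for Pdgfra, 22.8 for Pdgfa, 12.2 for Pdgfd, somewhat less for Pdgfrl (median 8.97), 0.288 for Pdgfc and 0.193 for Pdgfb. The ranges of neighbours overlapped except between Pdgfa and Pdgfd and between Pdgfrl and Pdgfc. In OGTi the order was Pdgfrb (26.6 TPM), Pdgfa (19.1), Pdgfra (10.8), Pdgfd (5.64), Pdgfrl (1.34), Pdgfc (0.0925) and Pdgfb (0.0125). Pdgfa was thus above Pdgfra in all 4 OGTi libraries, whereas Pdgfra was above Pdgfa in 3 of 4 control libraries. In OGTi replicate 1 Pdgfa was also above Pdgfrb.

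The genes with the most similar pattern over the 8 libraries, by root mean square difference of centred log2 CPM, were Parp11 (0.24) for Pdgfra, Adamts10 (0.21) and Adamts14 (0.23) for Pdgfrb, and She (0.29) and Npr3 (0.36) for Pdgfrl. For the ligands they were Tmem80 (0.14) and Aph1c (0.16) for Pdgfa, Scmh1 (0.16) and Asap1 (0.16) for Pdgfd, and Scn7a (0.28) and Tedc1 (0.31) for Pdgfc. No PDGF gene was among the 2 nearest of another.

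Whether other genes of the pathway moved with the receptors was examined with lists written from general knowledge, with earlier results of these data known. Of 106 genes in 6 lists 104 were tested, 12 rose and 14 fell, that is 25% of those tested, beside 18.4% of all genes. The median log2 fold change of the listed genes was -0.04. Calls were unevenly spread over the lists, and the difference between lists was not tested.

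Genes that process the ligands or bind them outside the cell gave 1 higher and 2 lower genes of 11 tested, with a median log2 fold change of -0.11. Plat encodes tissue plasminogen activator, which cleaves latent PDGF-C, and rose by 0.79 ± 0.20 (SE) on the log2 scale (edgeR adjusted p 0.0211), from 21.5 to 50.1 TPM in control and 29.2 to 59.7 TPM in OGTi. St14 encodes matriptase, which can activate PDGF-D, and fell by 0.99 (SE 0.29, adjusted p 0.0405), at 2.19 to 4.16 TPM in control and 0.71 to 1.89 TPM in OGTi. Lrp1, an endocytic receptor that associates with the beta receptor, fell by 0.97 (SE 0.21, adjusted p 0.0111), from 27.2 to 67.2 TPM in control and 8.16 to 28.9 TPM in OGTi. The calls of the 3 genes were lost without the replicate block (log2 fold changes 0.76, -0.97 and -0.95), without replicate 3 (log2 fold changes 0.85, -0.88 and -0.88, adjusted p 0.09, 0.181 and 0.0667) and without replicate 4 (log2 fold changes 0.81, -0.87 and -0.91, adjusted p 0.0615, 0.161 and 0.0549). Plat also did not pass without replicate 2 (adjusted p 0.0548), with library totals alone (0.0704) or on the TPM scales (0.0692 and 0.081), and St14 without replicate 1 (0.0881), with upper-quartile scaling (0.0644) or with the length trend removed (0.0603). Plau, which encodes the urokinase that activates PDGF-D, was lower in all 4 pairs but did not pass, with a log2 fold change of -1.34 and an adjusted p of 0.0867. Furin, which cleaves the A and B chains, had a log2 fold change of -0.47 (adjusted p 0.178). A2m and Cspg4 were not tested, with at most 0.01 TPM in any library.

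Of 39 adaptors and effectors of the receptors, all tested, 2 rose and 7 fell (23.1%), and the median log2 fold change was -0.07. Stat3, a transcription factor that activated receptors can phosphorylate, fell by 0.91 on the log2 scale (edgeR adjusted p 0.0173). Braf, a kinase of the cascade to ERK, fell by 1.93 (adjusted p 0.00472), from 3.82 to 7.39 TPM in control and 0.44 to 1.85 TPM in OGTi. Grb10, an adaptor that binds receptor tyrosine kinases, fell by 1.75 (adjusted p 0.00957). Fyn, a SRC family kinase that binds PDGF receptors, rose by 1.67 (adjusted p 0.00166), from 2.33 to 3.48 TPM in control and 5.84 to 9.68 TPM in OGTi. Pik3r1, the p85 alpha subunit of PI3 kinase, rose by 0.74 (adjusted p 0.0329) but did not pass with library totals alone (0.113), on the TPM scales (0.245 and 0.242) or without replicates 2, 3 or 4 (0.0898, 0.118 and 0.0992). Stat3 did not pass without replicate 3 (0.0688) or replicate 4 (0.0533). Of 16 genes that damp receptor signals, such as the ubiquitin ligase gene Cbl and the phosphatase gene Ptpn1, 0 passed, and the log2 fold changes of these were -0.11 and 0.52 (edgeR adjusted p 0.833 and 0.131). In this list 4 genes had an unadjusted p under 0.05, and DESeq2 called 2.

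**Figure D5:**
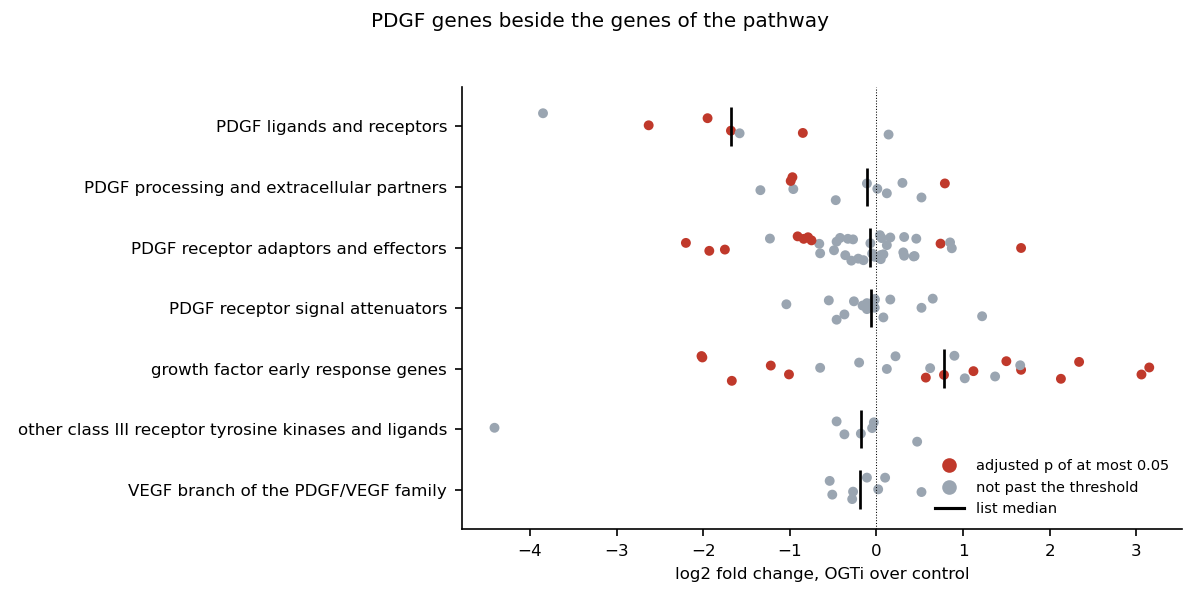
Log2 fold change of OGTi over control (horizontal axis) for the PDGF genes and 6 lists of pathway genes, 1 point per gene tested. Red points passed an adjusted p of 0.05 and bars are list medians. The median of the PDGF genes was -1.68, and the list medians lay between -0.19 and 0.78.

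Genes that respond early to growth factors were the list with the most calls, with 9 higher and 5 lower of 23 tested (60.9%) and a median log2 fold change of 0.78. The immediate early transcription factor genes Nr4a1, Atf3 and Egr1 rose by 3.15, 3.06 and 2.34 on the log2 scale (edgeR adjusted p 0.000201, 0.000294 and 0.00734), and the chemokine gene Ccl7 by 2.13 (adjusted p 0.00214). Egr1 went from 68.2 to 181.8 TPM in control to 198.5 to 1096 TPM in OGTi, with pair log2 ratios from 0.97 to 4.30, and its log2 fold change was 1.74 without replicate 4. In the other direction, Spry1, Spry2 and Dusp6, which encode feedback inhibitors of the ERK pathway, fell by 2.01, 1.67 and 1.22 (adjusted p 0.000607, 0.00156 and 0.00229). The feedback genes did not all move one way. Dusp5, another ERK phosphatase gene of the same list, named here after its values were seen, rose 2.82-fold (adjusted p 0.00197), and Dusp1 and Spry4 did not pass (log2 fold changes 1.66 and -0.65, adjusted p 0.127 and 0.0832). Dusp6 was at 120.6 to 193.2 TPM in control and at 50.0 to 56.9 TPM in OGTi. Klf10, an early gene best known from TGF-beta signaling, fell by 2.02 (adjusted p 0.00424). These genes also respond to other stimuli and to stress. Nr4a1, Atf3, Egr1, Ccl7, Spry1, Spry2, Dusp6, Klf10 and Dusp5 kept their direction and call in all 16 alternatives.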

How the data were processed

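RNA-seq was done on 4 control and 4 OGTi cultures. Per the study's methods and the submitters' processing notes, the authors aligned paired reads of stranded poly(A) libraries with Bowtie2 2.3.5.1 to mm39 (GRCm39) and counted them per gene with RSEM 1.3.1. The authors deposited expected counts (RSEM estimates), TPM and FPKM, the last not used, with RefSeq transcript identifiers, although a GENCODE annotation is named in the methods. RSEM can split reads between genes, but 0.251% to 0.978% of detected genes had a fractional count. The authors' deposited comparison table (DESeq2 1.36.0 fold changes and p-values) was not used.

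Expected counts were rounded. Genes with at least 10 counts in total (19963 of 40840) were tested with edgeR 4.0.16 in R 4.3.3 (TMM, glmQLFit, glmQLFTest) in a model with group and replicate number (the replicate block), and p-values were adjusted over all genes tested (Benjamini-Hochberg, 0.05). The SE is the log2 fold change divided by the root of F. Scaled counts are counts over the TMM-adjusted library size times its mean. Pairing follows the study's methods. Across genes, deviations from the group means correlated at 0.160, 0.224, 0.105 and 0.318 for replicates 1 to 4, and from -0.312 to 0.208 for other combinations. The cultures are described as biological replicates, and p-values measure the spread between them. Ratios and transcript lengths were tested by exact permutation over 8 libraries. The interval of a count ratio (exact binomial, SciPy 1.17.1) covers counting error only. Alternatives were DESeq2 1.42.0, 3 other scalings, 2 other filters, limma-trend 3.58.1 on TPM, no block, stricter thresholds, the length trend removed and each replicate left out.

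Gene coordinates are from GENCODE vM39, which is on the authors' build. The 7 members and the lists were chosen with earlier results of these data known. Named genes were all members, the list genes called (at most 4 per direction with the largest change), list genes not called where a count is explained, and the 2 genes nearest to each member with a mean of at least 10 scaled counts. Dusp5 falls outside this rule, and some genes that it names are not reported here.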

Additional observations from a re-analysis of the deposited data

Results flagged for a closer look

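Pdgfb in OGTi replicate 3 stood apart from its group, at 0.05 TPM against 0 TPM in the other OGTi libraries, which rests on 3 counts. It was the 1 group of 4 libraries, of 22 examined for PDGF levels, ratios and transcript lengths, with a library far from the others, and chance gives about 1 in 20 (1.1 here).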

How the results depend on the processing

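Pdgfra, Pdgfrb and Pdgfrl kept their direction and call in all 16 alternatives, with log2 fold changes from -2.42 to -1.57, -2.01 to -1.46 and -3.09 to -2.24, and adjusted p of at most 0.0385, 0.0131 and 0.0137. Pdgfd kept its direction but did not pass with no replicate block (-0.84), at an adjusted p of at most 0.01 or against a fold change of 1.5 (-0.85 in both), nor in 3 of the 4 fits without a replicate (-0.88 to -0.79 over the 4); the replicate block changed the call of no other PDGF gene. Pdgfb passed with DESeq2 (-4.39), no low-count filter (-3.84), and log2(TPM + 1) or log2(TPM + 0.1) (-0.24 and -1.40, shrunk by the value added); it is dropped by filterByExpr. Pdgfa, never past the threshold, turned negative with library totals alone (-0.05), on both TPM scales (-0.21 and -0.22) and without replicate 1 (-0.04 to 0.34 over the 4 fits). The Pdgfra to Pdgfrb ratio had the opposite sign without replicate 4 (-0.34 to 0.13). For the Pdgfra length, the sign-flip test over pairs in the replicate block (-417.5 bases) and the fits without a replicate (-504.6 to -362.1, exact p = 0.1) gave the smallest p they can give, above 0.05. Listed genes called were 15 at 0.01 and 15 against 1.5-fold, and 15 to 26 without a replicate (15 without replicate 3, 17 without replicate 4), against 26. With DESeq2 they were 34 and with no low-count filter 35, the most over all alternatives. Of the 26, 14 kept their call in all alternatives and 0 reversed. Over all genes, 3666 calls became 1668 at 0.01 and 1882 against 1.5-fold, as these stricter criteria must give fewer. Without a replicate, and so with fewer samples, they were 1905 to 3124 (1905 without replicate 3, 1956 without replicate 4). Other settings gave more calls, up to 4859 with DESeq2. The share of higher genes was 44.3%, against 30.1% with library totals alone and 25.7% or 26.2% on the TPM scales and 54.2% with upper-quartile scaling. In these the median over all genes was -0.19, -0.1, -0.23 and 0.13 on the log2 scale. Except where stated, the cause was not tested. Low counts limit what can be said of Pdgfb and Pdgfc.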

Other observations

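The receptors closest in structure to the PDGF receptors, and the VEGF branch of the same family, gave no calls, beside 18.4% of all genes tested. Lists of 7 and 8 genes can hold 0 calls at that share, and the difference from it was not tested. Of 7 other class III receptor and ligand genes, 0 passed the edgeR test, 0 had an unadjusted p under 0.05 and DESeq2 called 0. Csf1, a macrophage growth factor gene, was at 610.8 to 1434 TPM in control and 362.6 to 1134 TPM in OGTi, with a log2 fold change of -0.05 ± 0.31 (SE, adjusted p 0.942). Kitl, the ligand gene of KIT, had a log2 fold change of 0.47 ± 0.31 (adjusted p 0.338), while Kit and Flt3 stayed at or below 0.08 TPM. Csf1r, the remaining receptor gene of this list, was at 3.58 to 6.66 TPM in control and 2.22 to 5.39 TPM in OGTi. Its log2 fold change was -0.03 ± 0.23 (adjusted p 0.942). Of 8 VEGF genes 0 passed as well, with 0 at an unadjusted p under 0.05 and 0 called by DESeq2. The receptor genes Flt1 and Kdr stayed at or below 0.71 TPM. Vegfc, a lymphatic growth factor gene, was at 23.5 to 30.8 TPM in control and 14.2 to 21.8 TPM in OGTi. Its TPM ranges did not overlap, but on scaled counts 1 of 4 pairs was higher and the log2 fold change was -0.28 ± 0.24 (adjusted p 0.474). Pgf, which encodes placental growth factor, was lower in each of 4 pairs and had a log2 fold change of -0.51 ± 0.24 (adjusted p 0.166).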
